A study of Mus musculus with 12 samples.

Results

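The genes described here encode the enzymes with which a cell conjugates, reduces or oxidises reactive compounds: glutathione S-transferases, glutathione and thioredoxin peroxidases, glutaredoxins, thioredoxins, superoxide dismutases, catalase, aldehyde dehydrogenases and aldo-keto reductases. They were picked by gene symbol, under a rule chosen with earlier results of these data known. The platform's gene symbols had to begin with Gsta, Gstm, Gstp, Gstt, Gsto, Gstk, Mgst, Gpx (without Gpx4), Prdx, Txn (without Txnip), Glrx, Sod and a digit, Aldh or Akr, or to equal Gsr, Gss, Gclc, Gclm or Cat. The rule found 72 genes with 93 probes among 16255 measured features, a feature being a gene or a probe without a single gene symbol. Of these, 62 genes had a value on at least 3 of the 4 arrays of every comparison and were tested with 14729 features in all.

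Testis RNA of 3 groups of male mice on a Castaneus background was compared on 12 two-colour DNA arrays: wildtype mice, Wobbler mice, and Wobbler mice that carry a modifier (labelled Wobbler modifier). Wobbler is a recessive mutation of Vps54, a subunit of a complex that tethers vesicles returning to the Golgi, and it causes motor neuron degeneration and male infertility with malformed sperm heads. Every channel was a pool of 3 individuals, and each of the 3 pairs of groups was hybridised on 4 arrays, of which replicates 3 and 4 had the dyes exchanged. The sources used here do not give the age of the mice or the nature of the modifier. Nothing in the labels says that the arrays of a pair came from separate pools, so p-values measure only how far the arrays scatter, and that scatter may be technical. All values below are log2 ratios of the first-named group over the second, called a decrease or an increase where the adjusted p lies under 0.05. The direction is likely but not settled, because it was taken from the titles of the arrays and the customary dye order. In whole testis, fewer cells of a type and less RNA per cell cannot be told apart.

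Glutathione S-transferases join glutathione to electrophiles such as lipid aldehydes, and peroxidases of the glutathione and thioredoxin systems turn peroxides into water or alcohols. Thioredoxins and glutaredoxins pass the electrons on, and aldehyde dehydrogenases oxidise aldehydes, retinal among them. In testis these enzymes are known in somatic cells such as Leydig and Sertoli cells as well as in germ cells, and some, such as Txndc2 and Txndc8, are known from spermatids.

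The first question was how these enzymes differed between testis with the modifier and wildtype testis. Transcripts of 3 of the 4 mu-class glutathione S-transferases measured were lower with the modifier, and the fourth, Gstm1, had a like ratio but did not pass the threshold. Gstm3, Gstm2 and Gstm5 fell 2.10-fold, 1.99-fold and 1.93-fold, and Prdx4, a peroxiredoxin of the endoplasmic reticulum, fell 1.60-fold. These 4 genes were the members called lower of 62 tested (6.45%), where 0.699% of all features tested were called lower. No member was called higher, where 0.0339% of all features were. At an unadjusted p under 0.05, 15 members were lower (24.2%, against 5.22% of all features) and 0 were higher (against 2.11%). All 4 arrays lay below 0 for 17 members (27.4%, against 10.2% of all features) and above 0 for 0 members (against 8.53%). The median over the tested members was -0.07, beside 0.01 over all features. The fitted ratio was below 0 for 37 members and above 0 for 25. The calls depended on the arrays of this pair, as did those over all features. Leaving out its replicate 1, 2 or 3 gave 0 members, and leaving out replicate 4 gave 2. Over all features 20, 21, 20 and 48 were called in these fits, against 108 with all arrays. Without an array of Wobbler over wildtype, 5, 7, 3 and 3 members were called for replicates 1 to 4. Over all features these fits gave 103, 153, 88 and 86. Without any 1 array of modifier over Wobbler the same 4 genes were called, and 88 to 105 of all features.

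**Figure D1:**
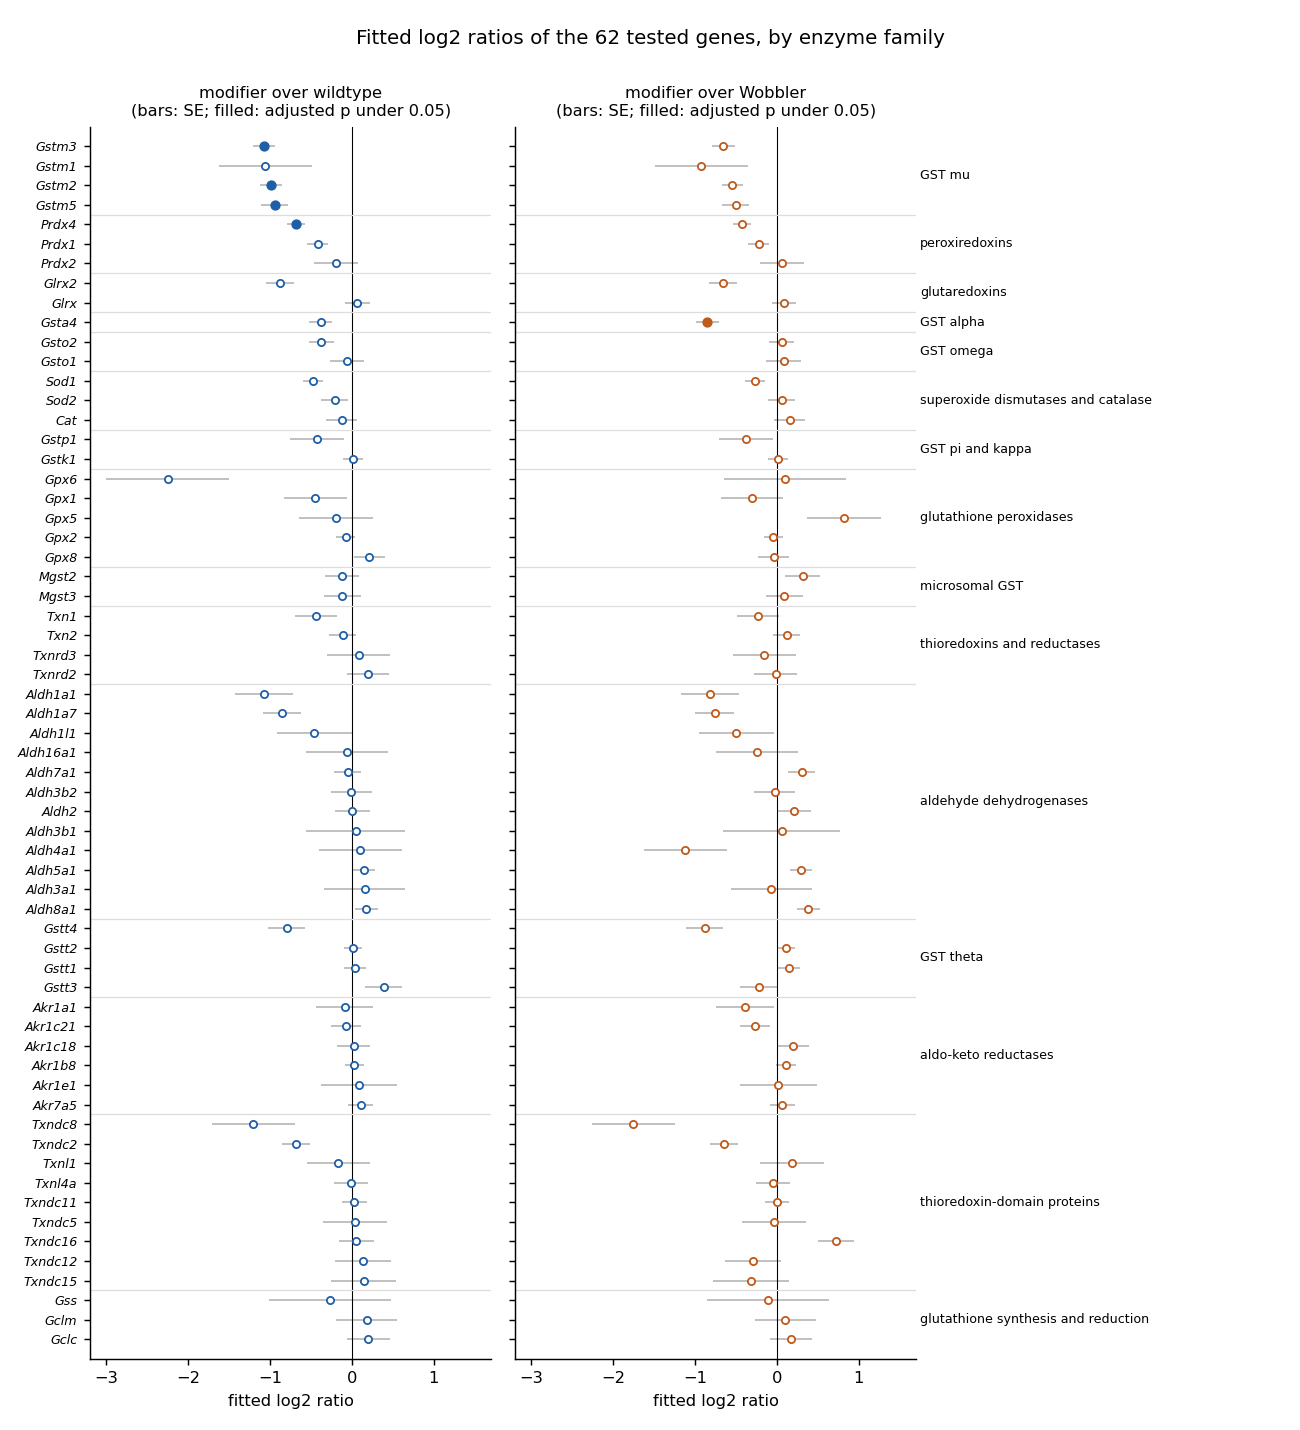
Fitted log2 ratios of the 62 tested genes (horizontal axis) by enzyme family, for modifier over wildtype (left) and modifier over Wobbler (right); bars are the SE of the fit and filled points have an adjusted p under 0.05. The mu-class genes lie together near -1 on the left, while most aldo-keto reductases and aldehyde dehydrogenases lie around 0.

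All mu-class genes with a probe were measured on 12 of 12 arrays. Gstm3 stood at -0.88, -1.06, -1.30 and -1.05 on replicates 1 to 4 of modifier over wildtype, a fitted log2 ratio of -1.07 ± 0.13 (SE, n = 4; limma, adjusted p = 0.0067). Gstm2 stood at -1.01, -0.87, -1.14 and -0.94, a fitted log2 ratio of -0.99 ± 0.13 (SE, n = 4; adjusted p = 0.00778). All arrays of both genes lay far from 0 and within a narrow band, in both dye orientations. Gstm5, represented by 2 probes, had log2 ratios of -1.02, -0.60, -1.25 and -0.91, fitted at -0.95 ± 0.16 (SE, n = 4; adjusted p = 0.0282). Its probes gave mean log2 ratios of -1.02 and -0.88. With each probe fitted on its own by limma, the second had an adjusted p = 0.0132 and the first an adjusted p = 0.235. The SE was 0.13 for the second and 0.29 for the first. The first scattered from -1.74 to 0.82 in modifier over Wobbler and had no value on replicate 2 of Wobbler over wildtype.

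Gstm1 had log2 ratios of -1.27, -1.20, -0.75 and -1.02 in the same comparison, as low as those of its relatives and on no array near 0. Its fit of -1.06 ± 0.57 (SE, n = 4; adjusted p = 0.868) did not pass the threshold. The spread of a gene is shared over the 12 arrays, and 1 spot of Gstm1, on replicate 2 of Wobbler over wildtype, stood at -3.93, where the other arrays of that pair read 0.66, 0.19 and -0.18. Without that array the log2 ratio of Gstm1 was -1.06 ± 0.15 (SE, n = 4; adjusted p = 0.015). Over the 4 mu genes the median log2 ratio was -1.02, with all 4 arrays below 0 for 4 of 4. This sign held for 4 of 4 under centring, scaling, weighting and each array left out; read as channel 1 over channel 2, without turning the dye-exchanged arrays, 1 of 4 was below 0.

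The mu genes lie next to each other. In the RefSeq gene order of GRCm38.p6 the block on chromosome 3 holds 7 protein-coding genes in a row, Gstm5, Gstm7, Gstm6, Gstm3, Gstm2, Gstm1 and Gstm4. The members are close paralogs, so a spot may bind transcripts of more than 1 of them, and how much of each value comes from a relative was not tested. The windows from 250 bases before to 50 bases after the start are shown for the 4 measured genes because 3 of them were called lower together and the fourth is their neighbour (RefSeq, GRCm38.p6, 5′ to 3′ on the strand of the gene). Capitals mark matches, on either strand, to TGACNNNGC (the core of the antioxidant response element, bound by Nrf2), TATAAA (the letters of a TATA box), CCAAT and GGGCGG (the GC box).
Gstm1, chr3:108017924-108018223, minus strand: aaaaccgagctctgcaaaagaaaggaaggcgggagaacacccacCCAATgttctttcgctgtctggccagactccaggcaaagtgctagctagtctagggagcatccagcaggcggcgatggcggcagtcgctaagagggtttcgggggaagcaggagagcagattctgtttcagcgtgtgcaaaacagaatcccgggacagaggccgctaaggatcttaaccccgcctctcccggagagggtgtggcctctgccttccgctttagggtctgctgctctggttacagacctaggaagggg
Gstm2, chr3:107986371-107986670, minus strand: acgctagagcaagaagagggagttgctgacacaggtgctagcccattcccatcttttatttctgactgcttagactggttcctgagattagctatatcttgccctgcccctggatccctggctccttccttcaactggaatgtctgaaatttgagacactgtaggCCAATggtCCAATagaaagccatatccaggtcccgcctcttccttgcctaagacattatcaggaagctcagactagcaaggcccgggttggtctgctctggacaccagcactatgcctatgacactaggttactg
Gstm3, chr3:107969125-107969424, minus strand: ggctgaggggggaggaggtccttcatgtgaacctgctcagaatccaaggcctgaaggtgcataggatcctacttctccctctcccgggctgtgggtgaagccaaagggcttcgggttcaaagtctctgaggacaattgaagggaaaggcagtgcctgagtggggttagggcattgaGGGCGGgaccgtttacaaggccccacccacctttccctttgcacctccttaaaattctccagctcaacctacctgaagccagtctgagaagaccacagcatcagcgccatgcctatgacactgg
Gstm5, chr3:107895604-107895903, plus strand: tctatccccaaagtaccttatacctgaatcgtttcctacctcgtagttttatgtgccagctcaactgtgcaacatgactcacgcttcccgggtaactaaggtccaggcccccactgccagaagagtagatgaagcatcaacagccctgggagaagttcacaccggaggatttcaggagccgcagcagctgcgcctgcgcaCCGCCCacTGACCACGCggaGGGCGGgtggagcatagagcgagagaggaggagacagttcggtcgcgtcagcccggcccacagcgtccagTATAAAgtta

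None of the motifs searched was in all 4 windows. Gstm5 held 1 antioxidant response core, 2 GC boxes and 1 match to TATAAA, which lies downstream of the start and not where a TATA box sits, Gstm3 held 1 GC box, Gstm1 held 1 CCAAT and Gstm2 held 2. Of 72 members, 62 had a start window in the table, and 8 of them (12.9%) held TGACNNNGC, where 12.5% of the windows of all 27025 genes did. TATAAA was found in 9 (14.5%, against 14.2% of all) and the cyclic AMP response element TGACGTCA in 1 (1.61%, against 1.88%). CCAAT was found in 33 (53.2%, against 37.9% of all windows) and GGGCGG in 32 (51.6%, against 35.9%). Such matches are descriptions of letters in these windows, not binding sites.

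The peroxiredoxins reduce peroxides with electrons from thioredoxin. Prdx4 had log2 ratios of -0.62, -0.48, -0.95 and -0.66 in modifier over wildtype and was fitted at -0.68 ± 0.11 (SE, n = 4; adjusted p = 0.0197). Prdx1, the abundant cytosolic member, had -0.34, -0.25, -0.62 and -0.47, all below 0, with a fit of -0.42 ± 0.13 (SE, n = 4; adjusted p = 0.278). Both genes kept 1 sign on 4 of 4 arrays, and only Prdx4 passed the threshold. Prdx2, the main peroxiredoxin of red cells, had a log2 ratio of -0.19 ± 0.27 (SE, n = 4) with arrays on both sides of 0.

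Of the 2 glutaredoxins tested, mitochondrial and nuclear Glrx2 was low and cytosolic Glrx was not. Glrx2 stood at -0.79, -0.70, -1.11 and -0.91 in modifier over wildtype, with a fitted log2 ratio of -0.88 ± 0.17 (SE, n = 4; adjusted p = 0.056), just outside the threshold. Without replicate 2 of Wobbler over wildtype its adjusted p was 0.00598. Its 2 probes differed by 1.25 on the log2 scale in Wobbler over wildtype, but both were negative in modifier over wildtype, at -0.75 and -1.01. Glrx had a fitted log2 ratio of 0.07 ± 0.15 (SE, n = 4), with 2 arrays above 0 and 2 below.

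Superoxide dismutases turn superoxide into hydrogen peroxide, which catalase breaks down. Sod1, the cytosolic enzyme, had log2 ratios of -0.32, -0.39, -0.86 and -0.34 in modifier over wildtype, fitted at -0.48 ± 0.12 (SE, n = 4; adjusted p = 0.174). Mitochondrial Sod2 was fitted at -0.21 ± 0.17 (SE, n = 4) and Cat at -0.12 ± 0.19 (SE, n = 4). None of the 3 passed the threshold, and only Sod1 had all its arrays on 1 side of 0.

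Among aldehyde dehydrogenases, the low ratios belonged to a pair of close relatives. Aldh1a1, which oxidises retinal to retinoic acid, had log2 ratios of -0.84, -0.69, -1.69 and -1.08 in modifier over wildtype, fitted at -1.07 ± 0.35 (SE, n = 4; adjusted p = 0.35). Aldh1a7 had -0.74, -0.63, -1.01 and -1.02, fitted at -0.85 ± 0.23 (SE, n = 4; adjusted p = 0.211). Neither gene had an array at or above -0.60, yet neither passed the threshold. As for Gstm1, replicate 2 of Wobbler over wildtype widened the spread: Aldh1a1 read 2.71 there, and without that array it was at -1.07 ± 0.18 (SE, n = 4; adjusted p = 0.0247). The other 10 tested aldehyde dehydrogenases ranged from -0.46 (Aldh1l1) to 0.18 (Aldh8a1), and mitochondrial Aldh2, the enzyme that clears acetaldehyde, was at 0.00 ± 0.21 (SE, n = 4).

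Among thioredoxin-domain genes the lowest ratios belonged to Txndc8 and Txndc2, both known from male germ cells. Txndc2, a thioredoxin of the sperm tail, had log2 ratios of -0.39, -0.91, -0.93 and -0.49 in modifier over wildtype, fitted at -0.68 ± 0.17 (SE, n = 4; adjusted p = 0.161). Txndc8, a thioredoxin of spermatids, had -0.70, -0.95, -2.63 and -0.54, fitted at -1.21 ± 0.51 (SE, n = 4; adjusted p = 0.615). All arrays of both lay below 0 and neither passed the threshold. Txn1, the general cytosolic thioredoxin, was at -0.44 ± 0.26 (SE, n = 4), Txnrd3, a reductase known from testis, at 0.08 ± 0.39 (SE, n = 4). The remaining 7 thioredoxin-domain genes lay between -0.17 and 0.14.

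Theta-class Gstt4 was low, with a fitted log2 ratio of -0.80 ± 0.23 (SE, n = 4; adjusted p = 0.232), while Gstt1, Gstt2 and Gstt3 lay between 0.01 and 0.39. Gpx6, a glutathione peroxidase, had the lowest fitted log2 ratio of the tested members, -2.25 ± 0.75 (SE, n = 4; adjusted p = 0.383). It rested on spots at -3.90 and -4.28, while the other arrays read -0.23 and -0.60. Of the enzymes that make glutathione none passed the threshold: Gclc, the catalytic subunit of glutamate-cysteine ligase, was at 0.20 ± 0.26 (SE, n = 4), its modifier subunit Gclm at 0.18 ± 0.37 (SE, n = 4) and glutathione synthetase Gss at -0.27 ± 0.75 (SE, n = 4). Gstp1, the pi-class transferase, was at -0.42 ± 0.33 (SE, n = 4). The 6 aldo-keto reductases tested, which reduce aldehydes and ketones to alcohols, stayed between -0.09 (Akr1a1) and 0.10 (Akr7a5).

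The second question was how the same enzymes compared between modifier and Wobbler testis. Here Gsta4, the alpha-class transferase that conjugates the lipid aldehyde 4-hydroxynonenal, was the member called. It fell 1.81-fold. That is 1 of 62 members called lower (1.61%), where 0.299% of all features were, and no member was called higher, where 0.115% were. At an unadjusted p under 0.05, 11 members were lower (17.7%, against 4.47% of all features) and 2 were higher (3.23%, against 7.03%). All 4 arrays lay below 0 for 13 members (21.0%, against 5.77%) and above 0 for 3 (4.84%, against 10.6%). The median over the members was -0.04, beside 0.08 over all features. This comparison shares its modifier and Wobbler groups with the other 2 pairs but none of their arrays.

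Gsta4 had log2 ratios of -0.91, -0.23, -1.24 and -1.03 in modifier over Wobbler, fitted at -0.85 ± 0.14 (SE, n = 4; limma, adjusted p = 0.0361). The call was fragile: of the 12 fits with 1 array left out, it was kept only without replicate 2 of Wobbler over wildtype, and the adjusted p of the other 11 ran from 0.0503 to 0.191. Its 2 probes did not read alike. Probe 16414 gave -1.83, -0.60, -2.03 and -1.25, far below 0 on every array, with a mean log2 ratio of -1.43 and an adjusted p = 0.0324 on its own. Probe 5509 gave 0.00, 0.14, -0.45 and -0.80, on both sides of 0, with a mean of -0.28 and an adjusted p = 0.429. The gap between the probe means was 1.15 in this comparison and 0.14 in modifier over wildtype. In Wobbler over wildtype it was 0.03, but those means cover different arrays. Probe 16414 had no value on replicate 2, where probe 5509 read 0.82. On replicates 1, 3 and 4 probe 5509 read 0.30, -0.30 and 0.11, and probe 16414 read 0.51, 0.45 and -0.18.

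**Figure D2:**
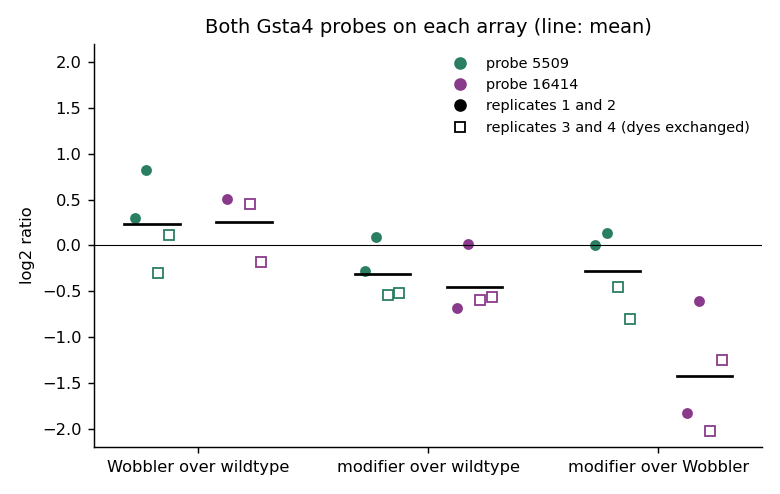
Log2 ratios (vertical axis) of the 2 probes of Gsta4 on each array, by comparison; filled circles are replicates 1 and 2, open squares the dye-exchanged replicates 3 and 4, and lines the means. In modifier over Wobbler the probes part, with means of -0.28 and -1.43.

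In modifier over wildtype, Gsta4 stood at -0.48, 0.05, -0.56 and -0.54, fitted at -0.38 ± 0.14 (SE, n = 4; adjusted p = 0.489). In Wobbler over wildtype it stood at 0.40, 0.82, 0.07 and -0.04, fitted at 0.32 ± 0.14 (SE, n = 4; adjusted p = 0.32). The 0.82 there came from probe 5509 alone. Only modifier over Wobbler gave a call for Gsta4. The other alpha-class genes of the platform, Gsta2 and Gsta3, had too few values to be tested.

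The mu-class genes were also below 0 in modifier over Wobbler, at smaller ratios. Gstm3 had log2 ratios of -0.70, -0.57, -0.86 and -0.48, fitted at -0.65 ± 0.13 (SE, n = 4; adjusted p = 0.0771). Gstm2 had -0.62, -0.24, -0.96 and -0.36, fitted at -0.55 ± 0.13 (SE, n = 4; adjusted p = 0.135). Gstm1 had -0.60, -0.82, -1.04 and -1.24, and without replicate 2 of Wobbler over wildtype its fit was -0.92 ± 0.15 (SE, n = 4; adjusted p = 0.0373). These 3 genes lay below 0 on all arrays, whereas Gstm5 had 1 array above 0, at 0.19, and a fit of -0.51 ± 0.16 (SE, n = 4; adjusted p = 0.275). None of the 4 was called in the fit over all arrays.

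**Figure D3:**
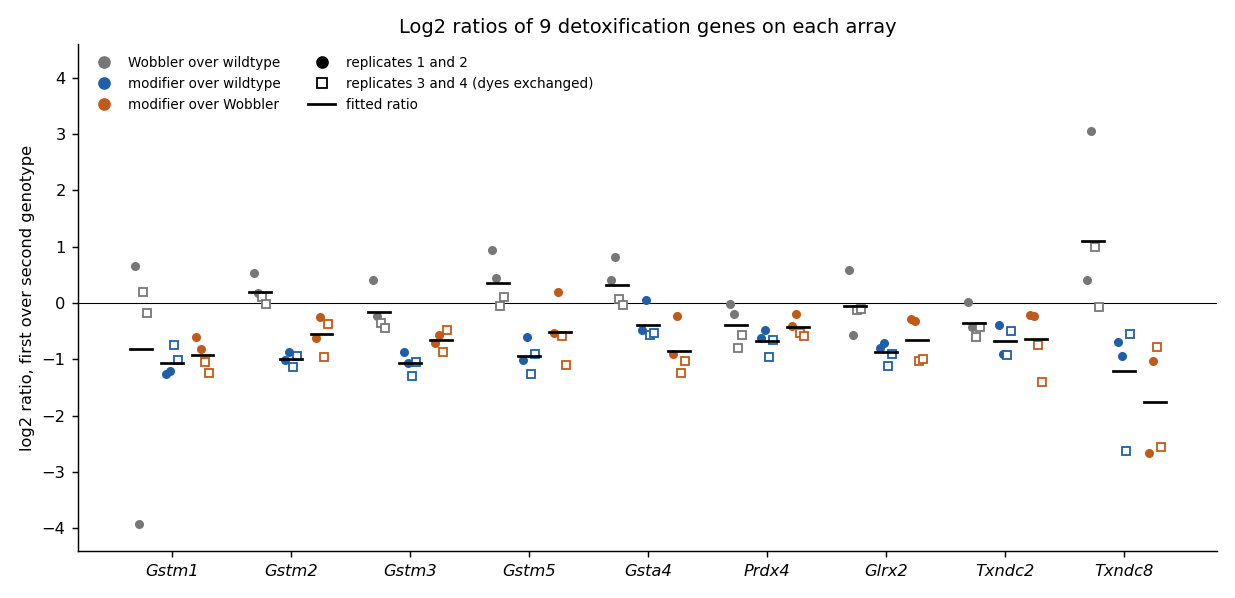
Log2 ratios (vertical axis) of 9 genes on each of the 12 arrays; colours mark the comparison, filled circles replicates 1 and 2, open squares the dye-exchanged replicates 3 and 4, and lines the fitted ratios. Arrays of modifier over wildtype lie below 0 for all genes but Gsta4, which has 1 array at 0.05.

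Of the genes that were low against wildtype, several were low against Wobbler testis too without being called. Prdx4 stood at -0.40, -0.20, -0.54 and -0.58, fitted at -0.43 ± 0.11 (SE, n = 4; adjusted p = 0.149). Glrx2 was fitted at -0.66 ± 0.17 (SE, n = 4; adjusted p = 0.16), and Gstt4 at -0.88 ± 0.23 (SE, n = 4; adjusted p = 0.155). Both had all 4 arrays below 0, and both passed the threshold without replicate 2 of Wobbler over wildtype (adjusted p = 0.0312 and 0.0497). Aldh1a1 was at -0.82 ± 0.35 (SE, n = 4; adjusted p = 0.412) and Aldh1a7 at -0.76 ± 0.23 (SE, n = 4; adjusted p = 0.246). Txndc2 was at -0.64 ± 0.17 (SE, n = 4; adjusted p = 0.171), and Txndc8, with -2.65, -1.03, -0.78 and -2.56, at -1.75 ± 0.51 (SE, n = 4; adjusted p = 0.213). Sod1 was at -0.27 ± 0.12 (SE, n = 4; adjusted p = 0.439), and Prdx1 at -0.22 ± 0.13 (SE, n = 4) with 1 array above 0.

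On the other side, 3 members were above 0 on all 4 arrays and none was called. Txndc16, a thioredoxin-domain protein of the endoplasmic reticulum, had log2 ratios of 0.84, 1.43, 0.01 and 0.59, fitted at 0.72 ± 0.22 (SE, n = 4; adjusted p = 0.236). Aldh8a1, a retinal dehydrogenase, was at 0.38 ± 0.14 (SE, n = 4; adjusted p = 0.326), and Aldh5a1, which oxidises succinic semialdehyde, at 0.29 ± 0.13 (SE, n = 4; adjusted p = 0.434). Gpx5, the secreted peroxidase of the epididymis, had the highest fitted log2 ratio, 0.82 ± 0.45 (SE, n = 4; adjusted p = 0.527), with arrays from -0.07 to 1.69. The members of the glutathione synthesis group lay between -0.12 (Gss) and 0.17 (Gclc), Cat was at 0.15 ± 0.19 (SE, n = 4) and Sod2 at 0.06 ± 0.17 (SE, n = 4).

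The third question was how Wobbler testis differed from wildtype testis. No member was called by limma in either direction, where 0.183% of all features were called lower and 0.122% higher. At an unadjusted p under 0.05, 5 members were lower (8.06%, against 8.47% of all features) and 7 were higher (11.3%, against 7.22%). All 4 arrays lay below 0 for 7 members (11.3%, against 9.72%) and above 0 for 0 (against 5.44%). The median over the members was 0.03, beside -0.01 over all features, so the members were near the background of this pair on most of these counts. The spread between arrays was also largest here, with a median residual SD over the members of 0.493 on the log2 scale, against 0.24 for modifier over wildtype and 0.37 for modifier over Wobbler.

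The smallest p-values of Wobbler over wildtype belonged to Gstt1 and Akr1c21, which lay near 0 in modifier over wildtype. Gstt1, the theta-class transferase, had log2 ratios of -0.67, -0.25, -0.71 and -0.69, fitted at -0.58 ± 0.13 (SE, n = 4; adjusted p = 0.121). Akr1c21, a hydroxysteroid dehydrogenase, had -0.92, -1.24, -0.35 and -0.52, fitted at -0.76 ± 0.18 (SE, n = 4; adjusted p = 0.125). Both lay below 0 on all arrays, while against wildtype the modifier gave Gstt1 at 0.04 ± 0.13 (SE, n = 4) and gave Akr1c21 at -0.07 ± 0.18 (SE, n = 4). Prdx4 was at -0.40 ± 0.11 (SE, n = 4; adjusted p = 0.158) and Gstt3 at -0.56 ± 0.22 (SE, n = 4; adjusted p = 0.281), again below 0 on every array. The 6 aldo-keto reductases all had fitted log2 ratios below 0, from -0.76 to -0.05, where 7485 of 14729 features did. Of the 6, 3 had 4 of 4 arrays below 0 (50%, against 9.72% of all features). The sign of Akr1e1 rested on 1 spot of probe 12109, at -6.06 on replicate 3, and its other probe had a mean of 0.26. Without replicate 2 of this pair Akr1c18 was at 0.12 ± 0.22 (SE, n = 3).

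The highest ratios of this pair rested on single spots. Gss had 5.12, 1.59 and 0.41 on the 3 arrays that measured it, fitted at 2.26 ± 0.87 (SE, n = 3; adjusted p = 0.274). Gclm had 0.61, 3.17, -0.02 and 0.11, and Aldh3a1 had 0.22, 4.11, -0.10 and 0.47. In both, replicate 2 stood far above the other arrays, and without it their log2 ratios were 0.32 ± 0.21 (SE, n = 3) and 0.25 ± 0.15 (SE, n = 3). On that replicate 8 of the 61 members measured had log2 ratios above 2 (13.1%, against 11.9% of all features): Aldh16a1, Aldh1a1, Aldh3a1, Gclm, Txndc5, Txndc8, Txnl1 and Txnrd3. Without it, 0 members were called in Wobbler over wildtype, where 29 of all features were. At an unadjusted p under 0.05, 5 members were higher and 4 lower. The share of all features at that threshold was not counted for this fit, so these counts have no background beside them.

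**Figure D4:**
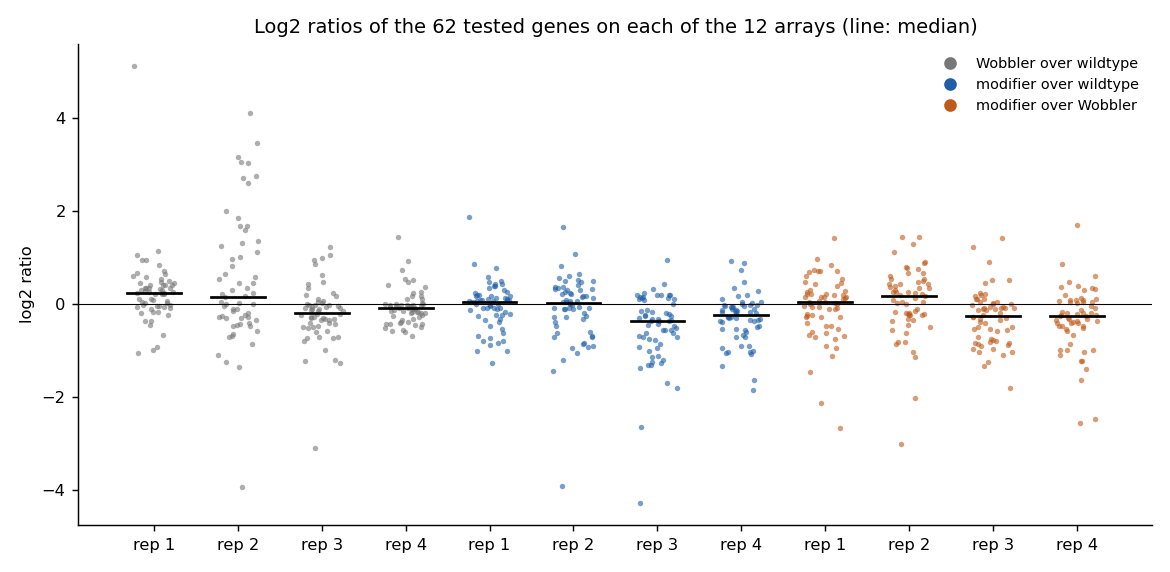
Log2 ratios (vertical axis) of the 62 tested genes on each of the 12 arrays, grouped by comparison; points are genes and lines are medians. Replicate 2 of Wobbler over wildtype spreads furthest upward, with 8 genes above 2.

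The 3 pairs of groups form a loop, so each ratio can also be had from the other 2 pairs. For Gstm3, modifier over wildtype was -1.07 ± 0.13 directly and -0.81 ± 0.19 through Wobbler. For Gstm2 the direct value was -0.99 ± 0.13 and the indirect one -0.34 ± 0.18, and for Gstm5 the values were -0.95 ± 0.16 and -0.14 ± 0.23 (SE in each case). Prdx4 was at -0.68 ± 0.11 directly and -0.82 ± 0.15 through Wobbler, and the direct value of Gsta4 in modifier over Wobbler, -0.85 ± 0.14, stood beside an indirect value of -0.70 ± 0.20. The direct and indirect values thus kept the same sign for these 5 genes, but those of Gstm2 and Gstm5 differed in size, by 0.65 ± 0.22 and 0.80 ± 0.28. No member had an adjusted p under 0.05 for this difference in limma, and 6 had an unadjusted p under 0.05 (9.68%, against 6.95% of all features), among them Gstm2 and Gstm5.

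Genes of the same pathways outside the symbol rule were described from lists. Of 22 genes of Nrf2 control and its other targets, such as Keap1, Nqo1 and Hmox1, 15 were tested and 0 were called in any comparison by limma. Over all features, 0.306%, 0.733% and 0.414% were called in Wobbler over wildtype, modifier over wildtype and modifier over Wobbler. Their median log2 ratio was 0.08 for Wobbler over wildtype, -0.02 for modifier over wildtype and 0.07 for modifier over Wobbler. At an unadjusted p under 0.05, 3 were higher (20.0%, against 7.22% of all features) and 1 lower (6.67%, against 8.47%) in the first pair. In the second pair 0 were higher (against 2.11%) and 2 lower (13.3%, against 5.22%). In the third 0 were higher (against 7.03%) and 1 lower (6.67%, against 4.47%). Of 24 other genes of glutathione handling, 16 were tested and 0 were called, with medians of 0.04, -0.06 and 0.01 in the same order. At an unadjusted p under 0.05 they had 1 higher, 1 lower and 1 lower. Each is 6.25% of the list, against 7.22%, 5.22% and 4.47% of all features. Of 25 genes of other phase 1 and 2 detoxification, 12 were tested and 1 was called lower (8.33%, against 0.699% of all features). It was Ephx1, the microsomal epoxide hydrolase, at -0.77 ± 0.12 (SE, n = 4; limma, adjusted p = 0.0172) in modifier over wildtype. The medians of that list were 0.09, 0.07 and 0.04. Of 21 genes that make superoxide and peroxide or guard against them, 10 were tested and 0 were called. Their medians were -0.06, 0.03 and 0.20. At an unadjusted p under 0.05, 1, 0 and 2 were higher (10%, 0% and 20%, against 7.22%, 2.11% and 7.03% of all features).

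Markers of some testis cell types moved in the same pairs as Gstm2, Gstm3, Gstm5, Prdx4 and Gsta4. Of 20 late spermatid markers tested of 22 listed, 8 were called lower in modifier over wildtype (40%, against 0.699% of all features). There 20 of 20 had a fitted log2 ratio below 0 (against 6992 of 14729 features), from -1.60 to -0.20 with a median of -0.87. In modifier over Wobbler 6 were called lower (30%, against 0.299% of all features). The median there was -0.66, and 18 were below 0 (against 5649 of 14729 features). In Wobbler over wildtype 0 were called by limma and the median was -0.03. At an unadjusted p under 0.05, 1 was higher in that pair (5%, against 7.22% of all features) and 1 lower (5%, against 8.47%). Of 8 Leydig cell markers tested of 12 listed, 2 were called lower in modifier over wildtype (25%, against 0.699% of all features). They were Cyp17a1, an enzyme of androgen synthesis, and Ephx1, which stands in both lists. The 8 ratios ran from -2.03 to -0.20 with a median of -0.70. In modifier over Wobbler Cyp17a1 was called lower (12.5% of the list, against 0.299% of all features) and the median was -0.56. In Wobbler over wildtype the median was 0.03. The 9 Sertoli cell markers had 0 calls by limma. Their median was -0.12 in modifier over wildtype. There 3 were lower at an unadjusted p under 0.05 (33.3%, against 5.22% of all features) and 1 higher (11.1%, against 2.11%). For modifier over Wobbler the median was -0.10, with 1 lower (11.1%, against 4.47%) and 2 higher (22.2%, against 7.03%) at that threshold. The 7 macrophage markers had medians of -0.22 and -0.18 in the same order. Tyrobp was called lower by limma in the first pair (14.3% of the list, against 0.699% of all features). The second pair had 0 calls, and 1 marker was lower at an unadjusted p under 0.05 (14.3%, against 4.47%). Of the lists with at most 4 tested genes, spermatocytes had 1 of 3 called lower in modifier over wildtype. It was Syce2, at -0.94 ± 0.13 (SE, n = 4), where 0.699% of all features were called lower. Spermatogonia, epididymis and blood had medians from -0.11 to 0.08 there with no call. They had 0 at an unadjusted p under 0.05, where 5.22% of all features were lower and 2.11% higher. Defining markers cannot be given as levels, since the files hold ratios only, and the part of these cell types in the results above was not tested.

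**Figure D5:**
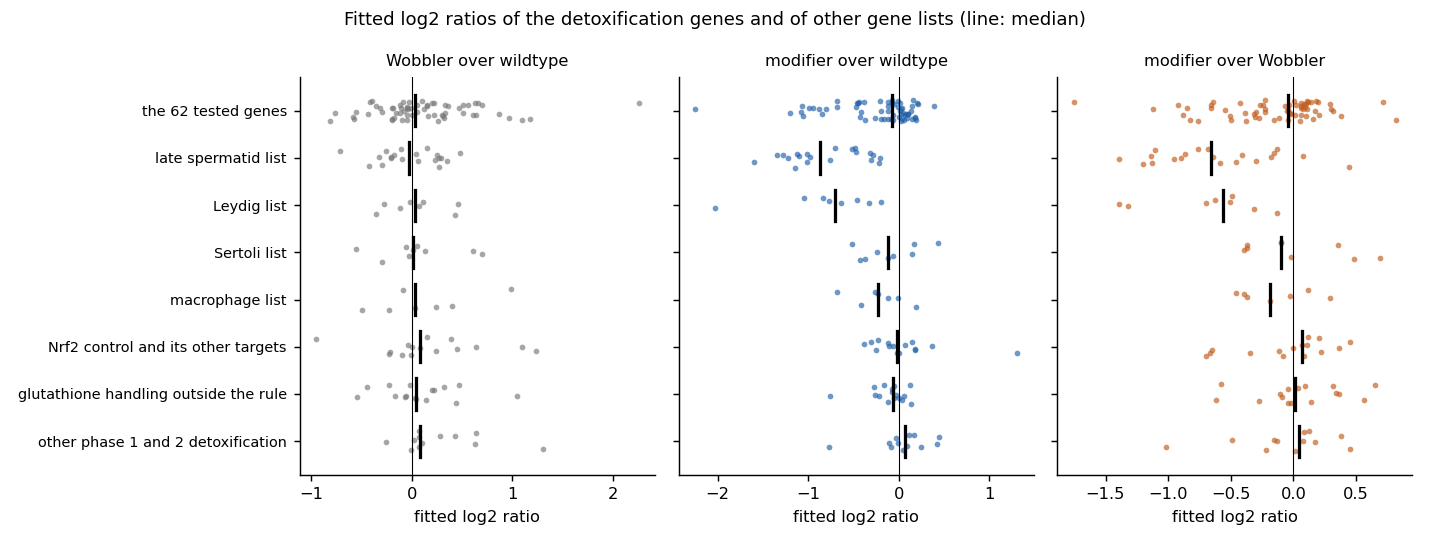
Fitted log2 ratios (horizontal axis) of the 62 tested detoxification genes and of the genes in 7 other lists, one panel per comparison; points are genes and vertical lines are medians. With the modifier, the late spermatid list has medians of -0.87 and -0.66 and the Leydig list -0.70 and -0.56, while the detoxification genes have medians near 0.

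The other 10 members had too few values for a test: Akr1c19, Akr1cl, Aldh3a2, Glrx5, Gpx7, Gsta2, Gsta3, Sod3, Txnl4b and Txnrd1. Their single values ran from -3.63 to 8.30. Sod3 is the extracellular superoxide dismutase and Txnrd1 the cytosolic thioredoxin reductase, and neither has a usable ratio here. Probes of 1 gene differed by more than 1 on the log2 scale in at least 1 comparison for Aldh1l1, Txnl4a, Txnrd1, Akr1e1, Glrx2, Gsto1 and Gsta4. The largest gap was that of Aldh1l1 in Wobbler over wildtype, with probe means of -1.25 and 0.40, but those means cover different arrays. The first probe had values on replicates 1 and 2 only. The second read 4.52 on replicate 2, where its other arrays read -1.43, -0.98 and -0.50.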

How the data were processed

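Each spot of an array has 1 log2 ratio deposited by the authors; base 2 was read from the values and the dyes from the labels. How arrays were scanned, background-corrected and normalized is not given in the sources used here. No intensities were used, so depth is unknown and the number of arrays limits the precision. Arrays held 18325 to 19584 usable spots, with medians from 0.03 to 0.22 and SDs from 0.62 to 1.61. On replicate 2 of Wobbler over wildtype 13.9% of ratios exceeded 2, against at most 2.69% elsewhere. A repeated value above 12, log2 of 100000 over the array's shift, was taken as a code and set to missing (22 to 165 spots per array). Ratios were read as Cy5 over Cy3, and dye-exchanged arrays were multiplied by -1. The labels' protocol also speaks of reference cDNA from pooled control animals, at odds with the labels of the channels, which were followed here.

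Of 20355 probes, 14030 had 1 gene symbol, 5 several and 6320 none; probes of a gene were averaged per array. All 93 probe identifiers of the members were found in the GRCm38.p6 gene table, which changed 0 symbols. Features were fitted with limma 3.58.1 in R 4.3.3 (lmFit, eBayes), with 1 mean per comparison, 1 dye term and 1 spread over all 12 arrays. Adjusted p-values are Benjamini-Hochberg over 14729 features, with the threshold at 0.05. The SE is that of this fit and n counts the arrays of the pair. The fit was tested on simulated data. Deviations of same-numbered arrays of different pairs correlated at -0.03 to 0.07. Arrays of other numbers with the same dyes gave -0.01 to 0.12. These values cannot tell whether the pools were shared.

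Members, lists and the naming rule were chosen with earlier results of these data known. Named were members called in any pair, per pair and direction the 4 with the smallest p and 1 sign on all arrays, a set of main enzymes, and genes whose probes differed by over 1. Further members were named outside this rule with their values known, among them Aldh1a7, Gstt4, Gpx6 and Aldh3a1. Alternatives changed centring, scaling, dye term, filter, pooling of the spread, weights, model, reading of the ratios, code values, dim spots, probes, block and set of arrays. Lists of spermatogonia, spermatocytes, epididymis and blood had at most 4 tested genes.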

Additional observations from a re-analysis of the deposited data

Results flagged for a closer look

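On 7 of the 104 sets of 4 arrays checked for the named genes, 1 array stood far from the others; chance flags about 1 in 20 such sets. In modifier over Wobbler, replicate 2 of Akr1a1 had a log2 ratio of -2.03, where the others lay between 0.01 and 0.24, and replicate 2 of Akr1e1 had 0.49, where the others lay between -0.21 and -0.10. In modifier over wildtype, Gclm stood at -0.71 on replicate 4 (others 0.40 to 0.60), Sod1 at -0.86 on replicate 3 (others -0.39 to -0.32) and Txn1 at -1.28 on replicate 3 (others -0.25 to -0.11). Gsta4 stood at 0.054 on replicate 2 of modifier over wildtype (others -0.56 to -0.48). Gstt1 stood at -0.25 on replicate 2 of Wobbler over wildtype (others -0.71 to -0.67), the widest array of the series.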

How the results depend on the processing

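With 4 members called in modifier over wildtype, scaling arrays to equal MAD gave 10 and array weights 13. No dye term gave 2 and the replicate block 2. Over all features the calls went from 108 to 438, 752, 46 and 58 in the same order. Fitting each comparison alone and reading the values as channel 1 over channel 2 gave 0 member calls each, with 0 over all features. Leaving out 1 array gave 0 to 7, with 20 to 153 calls over all features. With 1 member called in modifier over Wobbler, centring gave 2 and the loop model 7. The calls over all features went from 61 to 89 and 207. Scaling, no dye term, weights, each comparison alone and the channel reading gave 0 each. Over all features these gave 53, 7, 65, 0 and 0. Leaving out 1 array gave 0 to 4, with 0 to 128 calls over all features. The replicate block kept the call of Gsta4 there, with 24 calls over all features. The labels give the arrays a shared number and do not say whether pools were shared. In Wobbler over wildtype 0 members were called under all 25 alternatives, where 0 to 87 of all features were. Read as channel 1 over channel 2, the member median was 0.17 for modifier over wildtype and 0.19 for modifier over Wobbler, and the called genes changed sign, to 0.049 (Gstm2), 0.10 (Gstm3), 0.14 (Gstm5), 0.13 (Prdx4) and 0.28 (Gsta4). Over 24 alternatives (all but each probe on its own) Gstm2 and Gstm3 were called in 19 each, Prdx4 in 16, Gstm5 in 13 and Gsta4 in 8. The cause of these changes was not tested. Without spot brightness, dim spots could be told only by repeated whole-number ratios. Leaving these out gave 5 and 1 member calls, with 112 and 65 over all features.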
